A study of Mus musculus with 8 samples.

Results

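The promoters of voltage-gated and potassium channel genes were examined in germline stem (GS) cells. Members were the autosomal genes of the promoter table whose symbols begin with Kcn, Cacn, Clcn, or with Scn, Hcn, Trpa, Trpc, Trpm or Trpv followed by a digit, and *Kcnk9*, an imprinted gene, was left out. They numbered 71 genes with 2375 cytosines, out of 9224 genes with 203645 cytosines in the table, and out of 164 protein-coding genes of GENCODE M21 that fit the same rule.

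GS cells are spermatogonia kept in culture, among which stem cells are enriched. Each line came from CD9-expressing spermatogonia of testes of B6 F1 mice, with the genotype given as WT, sired by natural mating (control-F1, lines 29, 37, 44 and 45) or by intracytoplasmic sperm injection (ICSI-F1, lines 11, 17, 20 and 21). A library of reduced representation bisulfite sequencing (RRBS) was made from each line. Per the study's methods, the injected sperm came from testes of green mice, which carry an EGFP transgene. The line numbers recur as numbers of single F1 mice in the study's supplement, and each line was taken as 1 animal, so that p-values measure the spread between these lines. The comparison asks whether sperm injection left a mark on promoter methylation in the germline of the offspring.

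Ion channels let potassium, calcium, sodium or chloride cross membranes, and the voltage-gated ones open when the membrane potential changes. They carry the electrical activity of nerve, heart and muscle, and many are little used in germ cells. DNA methylation is placed on cytosines followed by guanine (CpG). CpG-dense promoters, called CpG islands, are usually free of it whether or not the gene is active, whereas promoters poor in CpG are often methylated in cells that do not use the gene. Only DNA was examined here, and the expression of these channels was not. The study also sequenced RNA of GS cells from both groups and reported no differentially expressed genes at its threshold. Of 20 listed germ cell genes, 11, among them *Ddx4* and *Dazl*, had covered promoters, and their mean levels lay between 2.45% and 9.09%. The median over all promoters of the table was 5.64%, so these levels alone cannot tell germ cells from other cells.

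The methylation level of a cytosine is the percentage of its reads that remained cytosine after bisulfite treatment. All 2375 channel cytosines lay in a CpG of the reference genome and upstream of the listed start, at 1 to 995 bp, with a median of 219 bp. The lowest scaled coverage among the lines had a median of 47 reads per channel cytosine, against 51 over the table, and coverage ranged from 10 to 281. Per line, the median scaled coverage of channel cytosines was 71 to 86. Before scaling, depth was less even, as the study's supplement lists more reads for each of lines 44, 45, 20 and 21 than for any other line. Whether this depth bears on the levels was not tested. Lines 29, 37, 11 and 17 (set 1) and lines 44, 45, 20 and 21 (set 2) are described in different fields of the labels, with no stated reason, and each set holds lines of both groups. Set 2 had higher levels than set 1 in 70 of the 71 promoters, so differences are also given within each set. The whole table was shifted alike, with line means of 6.14% to 6.88% in set 1 and 8.24% to 9.26% in set 2.

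The sequences below show the stretches that carried the results. The first 3 hold the hypermethylated cytosines described below, *Scn4a* is a highly methylated promoter, and *Hcn4* is an unmethylated island with a single highly methylated cytosine. Each is the plus strand of GRCm38.p6 (mm10), 5′ to 3′, and capitals mark CpGs with a covered cytosine.
*Trpm6*, chr19:18749089-18749229: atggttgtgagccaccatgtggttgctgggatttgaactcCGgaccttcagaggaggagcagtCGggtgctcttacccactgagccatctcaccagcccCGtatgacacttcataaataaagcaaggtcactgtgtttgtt
*Kcnk10*, chr12:98579088-98579230: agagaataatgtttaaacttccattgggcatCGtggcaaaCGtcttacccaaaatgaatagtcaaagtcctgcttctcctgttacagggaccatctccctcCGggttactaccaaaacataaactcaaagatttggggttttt
*Kcnk12*, chr17:87798423-87798503: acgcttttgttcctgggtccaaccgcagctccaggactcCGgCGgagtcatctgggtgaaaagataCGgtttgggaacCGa
*Scn4a*, chr11:106353267-106353347: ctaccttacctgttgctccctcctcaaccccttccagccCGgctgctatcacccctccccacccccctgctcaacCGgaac
*Hcn4*, chr9:58823362-58823442: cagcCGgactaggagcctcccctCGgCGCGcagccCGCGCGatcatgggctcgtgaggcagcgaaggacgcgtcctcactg

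Most channel promoters were almost free of methylation in both groups. Of the 71 promoters, 55 had a mean level under 10%, 5 lay between 10% and 20%, and 11 were at 20% or more. The median promoter level was 5.85%, against 5.64% over all promoters of the table. Averaged over cytosines, control-F1 lines had 6.28% ± 1.61 (SD, n = 4) and ICSI-F1 lines 6.23% ± 1.22 (SD, n = 4). The single lines had 4.85%, 4.98%, 8.02% and 7.28% (29, 37, 44, 45) and 4.74%, 5.77%, 7.44% and 6.96% (11, 17, 20, 21). The groups overlapped, and the lines separated by set rather than by group. The difference was 0.34 percentage points in set 1 and −0.449 in set 2, and leaving out single lines moved it between −0.533 and 0.524.

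**Figure D1:**
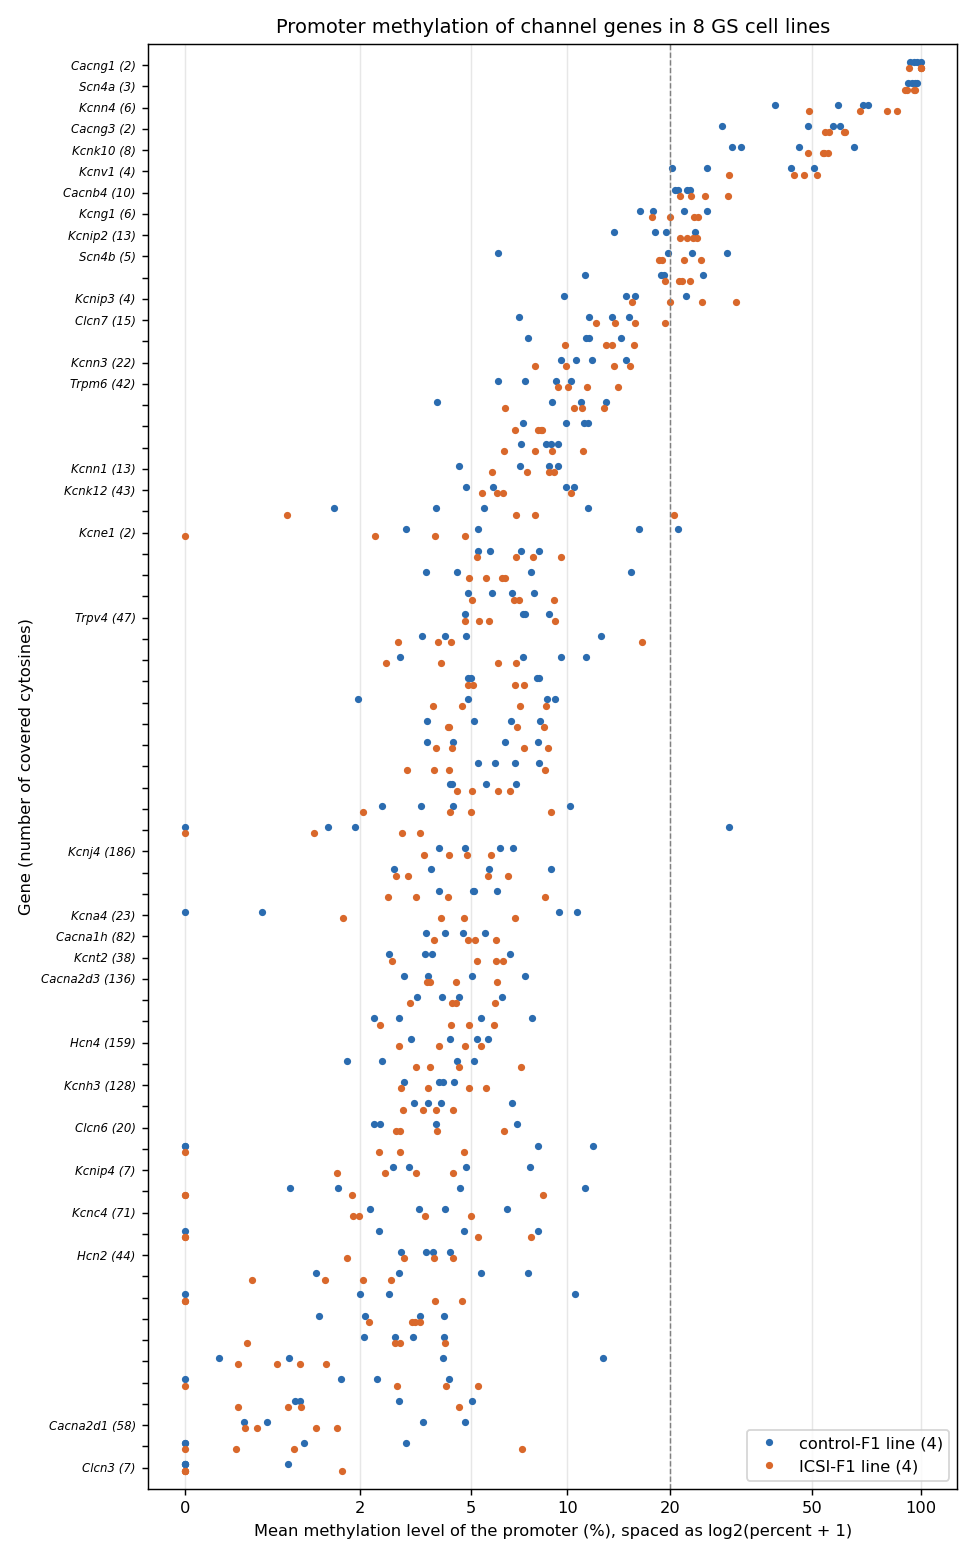
Mean methylation level of 67 of the 71 channel promoters (rows, those described in the text named, with the number of covered cytosines in brackets) in each control-F1 line (blue) and ICSI-F1 line (orange). The horizontal axis is in percent, spaced as log2(percent + 1), and the dashed line marks 20%. The 10 promoters at 20% or more stand above 57 promoters at lower levels, and the colours overlap in every row.

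CpG islands held 1901 of the channel cytosines, and these averaged 4.74% ± 1.37 in the control-F1 lines and 4.49% ± 1.05 in the ICSI-F1 lines. Shores, the flanks of islands, held 230 cytosines with 14.0% ± 2.36 and 14.3% ± 1.92. The 228 cytosines outside islands, shores and shelves had 10.1% ± 2.59 and 10.9% ± 2.03, and over the whole table cytosines of this kind had 20.5% and 20.9%. None of the 41 promoters with island cytosines reached 20%. The 30 promoters without island cytosines had a median of 11.9%. The 1 kb upstream of the start had a median ratio of observed to expected CpGs of 0.467 in all channel genes and of 0.289 in the 11 with 20% or more. Over the 71 genes this ratio and the promoter level had a Spearman coefficient of −0.424, a description of genes that differ in their number of cytosines. RefSeq promoter windows around the start (GRCm38.p6) were found for 52 members, 66 windows in all, and were searched on both strands. TATAAA, the TATA box, occurred in 3.03% of channel windows and in 13.6% of all 32851 windows. GGGCGG, the GC box, occurred in 59.1% and 35.7%. The 8574 windows of all genes in the methylation table had 6.86% and 63.1%, respectively.

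Levels were far higher at cytosines in CCGG, the sequence that the RRBS enzyme MspI cuts. The 387 channel cytosines in CCGG averaged 24.3% ± 2.83 in the control-F1 lines and 25.1% ± 2.16 in the ICSI-F1 lines, and the other 1988 averaged 2.78% ± 1.41 and 2.54% ± 1.05. These ranges did not meet in any line, as CCGG cytosines had at least 21% and the others at most 4.32%. The whole table was split in the same way, with 26.2% and 26.8% in CCGG and 3.85% and 3.54% elsewhere. Of 936 channel CpGs covered on both strands, 62 differed by more than 20 percentage points between the strands, and all 62 were in CCGG. The 810 other pairs differed by at most 9.26 percentage points. MspI leaves fragment ends that are filled in before sequencing. The reads were trimmed in the RRBS mode of TrimGalore, and the part of filled-in ends in the CCGG levels was not tested. Without CCGG cytosines, 66 promoters had a covered cytosine, their median level was 2.40%, and 60 were under 10%.

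**Figure D2:**
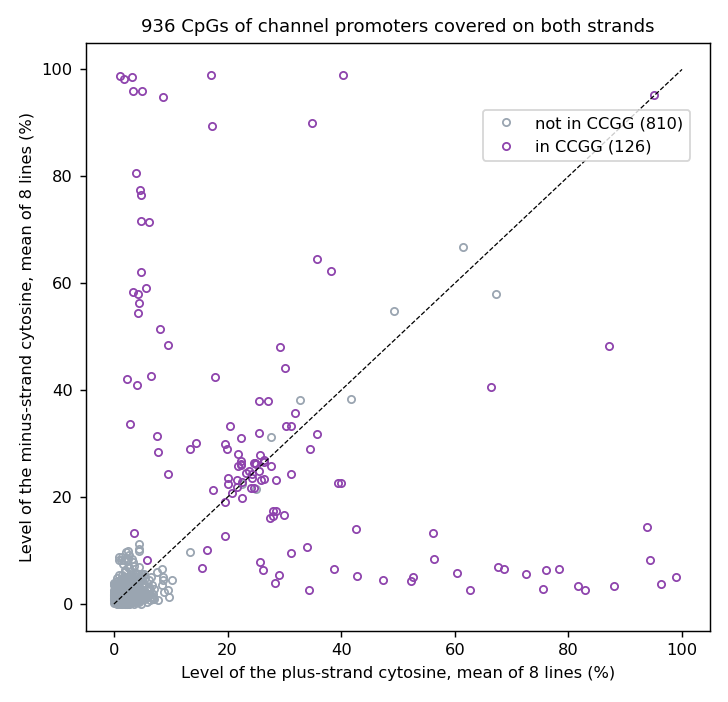
Methylation level of the plus-strand cytosine (horizontal, %) against the minus-strand cytosine (vertical, %) of each channel CpG covered on both strands, as means of 8 lines. The 810 CpGs outside CCGG (grey) lie near the dashed line of equal levels, mostly close to 0, while the 126 in CCGG (purple) are spread, with 36 pairs more than 50 percentage points apart.

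Single methylated cytosines in otherwise unmethylated promoters were of this kind. Among promoters with at least 5 cytosines and a median under 10%, 47 channel cytosines in 33 of 54 promoters had 50% or more, and 44 of the 47 were in CCGG, against 15.6% of all cytosines of these promoters. *Hcn4*, a pacemaker channel, had 98.6% at a cytosine 45 bp upstream of its start (position 58823367, minus strand), while the partner on the other strand had 3.10% and the promoter median was 1.83%. In *Trpv4*, a channel opened by heat and osmotic swelling, 98.9% was measured 48 bp upstream, beside 17.1% on the other strand. *Kcnj4*, an inward rectifier, had 98.3% at 42 bp upstream with 1.76% on the other strand. The next cytosines lay within 14 bp of these sites and had 1.71% to 3.10%. Of the 47, 34 were higher and 13 lower in ICSI-F1 lines, with a median difference of 5.95 percentage points. The table as a whole was alike, as 1.98% of its cytosines in such promoters were of this kind against 2.03% of channel cytosines, and 2727 were higher and 1086 lower, with a median of 3.82 percentage points. Such cytosines occurred in 41.3% of these promoters of the table and in 61.1% of the channel promoters, a difference that was not tested. These shares do not allow for the number of cytosines per promoter, with 2315 in the 54 channel promoters and 193896 in the 6716 of the table.

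The highly methylated promoters belonged to several channel classes. *Cacng1*, a gamma subunit of the skeletal muscle calcium channel, averaged 96.8% ± 2.76 (SD, n = 4) over its 2 cytosines in the control-F1 lines, against 98.2% ± 3.57 (SD, n = 4) in the ICSI-F1 lines. *Scn4a*, the sodium channel of skeletal muscle, had 95.3% ± 2.53 and 93.7% ± 2.97 over 3 cytosines, all in CCGG. In both promoters no line was below 90.5%. The promoters described next were intermediate.

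*Kcnn4*, the intermediate-conductance calcium-activated potassium channel, had the largest increase. Its 6 cytosines averaged 39.4%, 59.2%, 69.3% and 71.4% in lines 29, 37, 44 and 45, and 49.2%, 68.0%, 80.9% and 86.3% in lines 11, 17, 20 and 21. Lines of set 1 were the lowest of each group and the groups overlapped (difference 11.2 percentage points, adjusted p = 1 in limma). Without line 29 the difference was 4.44 percentage points, and without line 11 it was 18.5. *Cacng3*, a gamma subunit that also acts on AMPA receptors, had 48.7%, 28.0%, 57.2% and 59.9% in the control-F1 lines and 54.4%, 61.4%, 61.7% and 55.8% in the ICSI-F1 lines at 2 CCGG cytosines. Line 37 was low, and the difference of 9.87 percentage points was 3.05 without it. *Kcnv1*, a silent subunit that modifies Kv2 channels, had 35.0% ± 14.5 and 43.3% ± 9.69 over 4 CCGG cytosines, and its difference was 14.2 percentage points within set 1 but 2.36 within set 2. Leaving out line 37 gave 3.33 percentage points, and leaving out line 44 gave 13.4.

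*Cacnb4*, *Kcng1*, *Kcnip2* and *Scn4b* differed by 0.891 to 3.98 percentage points. *Cacnb4*, a cytoplasmic calcium channel subunit, had 21.7% ± 1.01 and 24.6% ± 3.36, *Kcng1*, another silent potassium channel subunit, 20.4% ± 4.09 and 21.3% ± 2.93, and *Kcnip2*, a calcium-binding partner of Kv4 channels, 18.7% ± 4.03 and 22.7% ± 1.1. *Scn4b*, an auxiliary sodium channel subunit, had 19.4% ± 9.68 and 20.96% ± 2.79. *Kcnip3*, also a partner of Kv4 channels and just under 20% over all lines, had 15.6% ± 5.09 and 22.7% ± 6.52, with 9.49 percentage points in set 1, 4.63 in set 2 and overlap. Outside CCGG, the cytosines of *Cacnb4* and *Scn4b* averaged only 4.58% and 7.17%.

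Between the groups, 37 channel promoters were higher in ICSI-F1 lines (52.1%, where 44.5% of all promoters were) and 34 lower. Of the 71, 64 differed by less than 5 percentage points. In 67 of 71 the difference was smaller than the larger of the group SDs, and 33 had opposite signs in the sets. With all 8 lines, no channel promoter had groups without overlap, where 0.672% of the promoters of the table were higher and 0.791% lower without overlap. Limma on log2(percent + 1) gave 0 channel promoters at a false discovery rate (Benjamini-Hochberg) of 0.05, and the smallest adjusted p was 1. At an unadjusted p under 0.05 it gave 1 of 71, where 3.13% of all 9224 promoters passed, and with the label set in the design it gave 2, *Kcne1* and *Trpm6* (2.82%, where 5.38% of all promoters passed). *Kcne1*, a small partner of the Kcnq1 channel, had 3.01%, 21.1%, 16.2% and 5.28% in the control-F1 lines and at most 4.79% in the ICSI-F1 lines, at 2 cytosines. The control-F1 values were split, with line 29 below the highest ICSI-F1 line. The difference was −8.66 percentage points, and −5.44 without line 37 (log2 difference −1.67 ± 0.70 SE, unadjusted p = 0.0422 in limma across all promoters, adjusted p = 1).

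By the 20% rule, a cytosine counted as hypermethylated when the ICSI-F1 mean exceeded the control-F1 mean by over 20 percentage points and no ICSI-F1 line fell to that control-F1 mean. Of the 2375 channel cytosines, 8 were hypermethylated (0.337%, where 0.274% of all cytosines were), and none was hypomethylated (0.0506% of all cytosines were). The 8 lay in *Trpm6* (5), *Kcnk10* (2) and *Kcnk12* (1). The quasi-binomial logistic model with dispersion moderated by limma, tested on 2304 channel cytosines and adjusted over 196818, gave 0 at a false discovery rate of 0.05, with 0.233 the smallest adjusted p. The same model without moderation and limma on log2 ratios also gave 0. At an unadjusted p under 0.05, 88 channel cytosines were higher (3.82%, where 2.6% of all tested were) and 98 lower in ICSI-F1 lines (4.25%, where 4.47% of all were). At that level the unmoderated model gave 211 channel cytosines (9.16%, where 7.75% of all tested passed) and limma 71 (2.99%, where 3.47% of all passed).

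**Figure D3:**
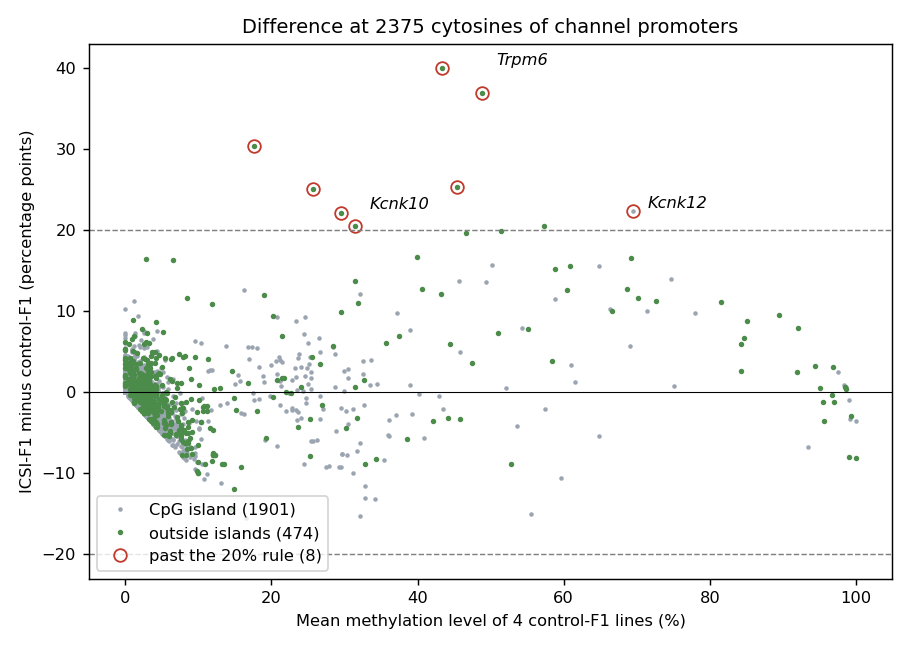
Difference between the group means (ICSI-F1 minus control-F1, percentage points) against the control-F1 mean (%) at each of 2375 channel cytosines, in islands (grey) and outside them (green). Dashed lines mark 20 percentage points in either direction. Red circles mark the 8 hypermethylated cytosines of *Trpm6*, *Kcnk10* and *Kcnk12*, and no cytosine lies below the lower line.

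The hypermethylated cytosines of *Trpm6* (ENSMUSG00000024727), a magnesium channel of gut and kidney with a kinase domain, lay on chromosome 19 within the first sequence above. All 5 were 794 to 854 bp upstream of the listed start, outside islands and outside GENCODE genes, in sequence that the assembly marks as repeated. They form 3 CpGs, the first in CCGG. At position 18749129 the levels were 57.1%, 28.8%, 35.1% and 52.4% in lines 29, 37, 44 and 45 and 76.5%, 90.3%, 69.6% and 97.1% in lines 11, 17, 20 and 21. At 18749152 they were 56.0%, 40.6%, 38.3% and 60.3%, and 88.6%, 92.3%, 71.6% and 90.6%. Every ICSI-F1 line was above every control-F1 line at both. The differences were 39.999 and 36.98 percentage points, the largest of all channel cytosines, with adjusted p of 0.592 and 0.233 in the logistic model.

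The minus-strand partner of the second CpG, at 18749153, had 33.3%, 35.8%, 51.9% and 60.5% against 62.9%, 60.2%, 74.1% and 85.7%, so that line 45 just exceeded line 17. At 18749188 the control-F1 lines had 28.1%, 12.6%, 15.1% and 14.6% and the ICSI-F1 lines 54.5%, 47.7%, 41.8% and 47.8%. Its partner at 18749189 had 14.1%, 34.8%, 28.3% and 25.6% against 47.1%, 45.5%, 71.8% and 38.7%. The groups of this last CpG did not overlap on either strand, and both strands moved alike. The differences were 25.4, 30.4 and 25.1 percentage points (adjusted p = 0.702, 0.233 and 0.702 in the logistic model). Coverage was 28 to 139 scaled reads.

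Averaged over the 5 cytosines, control-F1 lines had 36.2% ± 5.25 (SD, n = 4) and ICSI-F1 lines 67.7% ± 2.92 (SD, n = 4), values chosen by the rule and therefore not tested. Within set 1 the 5 differences were 21.9 to 42.2 percentage points and within set 2 23.7 to 39.6, and 4 of the 5 cytosines passed the rule in each of the 8 analyses that left out a line. The fifth, 18749189, was lost without line 20. These runs reuse most of the lines by which the rule chose the cytosines. The share of all hypermethylated cytosines that stayed is not given, so the runs do not set *Trpm6* apart. No other cytosine of the table had the same 18 bases around any of the 5. The search was limited to the table, so it cannot tell whether this repeated sequence has copies elsewhere in the genome. Closer to the start, the other 37 *Trpm6* cytosines had 4.501% ± 2.12 and 3.63% ± 2.02, and 36 of them were under 10%. At the level of the promoter, *Trpm6* had 8.27% ± 1.83 and 11.3% ± 2.07, with overlap (adjusted p = 1 in limma). When only cytosines with at least 30 scaled reads in every line were used, 18749152 reached an adjusted p of 0.0357 in the logistic model, 1 of 80 such cytosines in the table.

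**Figure D4:**
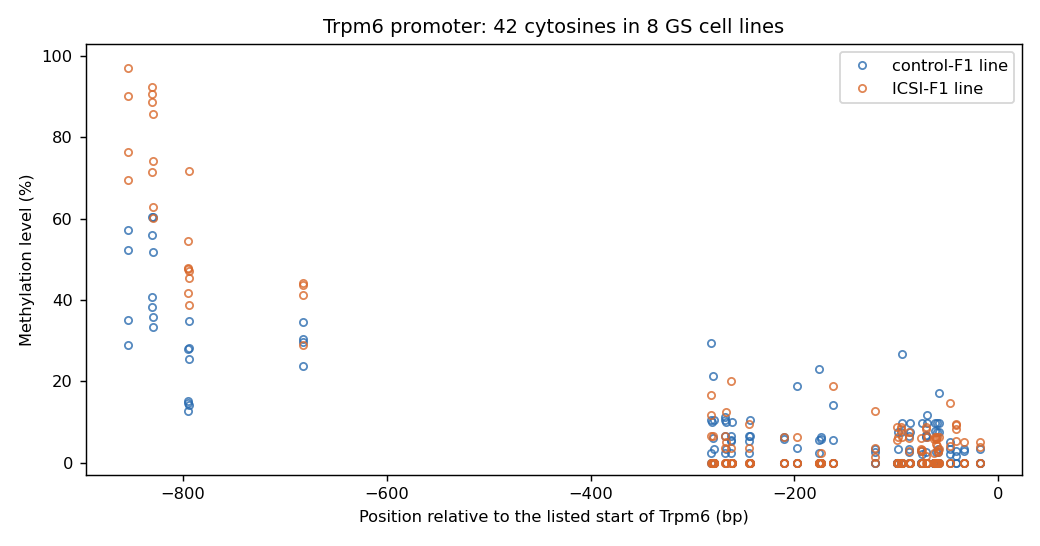
Methylation level (%) of the 42 covered cytosines of the *Trpm6* promoter in each control-F1 (blue) and ICSI-F1 line (orange), by position relative to the listed start in bp. The 5 hypermethylated cytosines lie at 794 to 854 bp upstream, where the ICSI-F1 lines are the higher ones, and 36 of the other 37 have mean levels under 10%.

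*Kcnk10* (ENSMUSG00000033854), a background potassium channel also called TREK-2, had 2 hypermethylated cytosines on chromosome 12, both in the shelf of an island and outside GENCODE genes. At 98579128, 818 bp upstream, the levels were 21%, 18.3%, 62.4% and 24.2% in lines 29, 37, 44 and 45 and 60.0%, 57.1%, 41.4% and 49.4% in lines 11, 17, 20 and 21. At 98579190, 880 bp upstream in CCGG, they were 22.1%, 15.9%, 55.3% and 24.8%, and 43.1%, 48.4%, 60.0% and 55.2%. Line 44 stood above the other control-F1 lines at both, and the groups overlapped because of it. The differences of 20.5 and 22.2 percentage points both became 30.8 without line 44, and the adjusted p, 0.702 for both with all lines, became 0.0441 and 0.0309 in the logistic model, in which 70 cytosines of the table then passed. The first difference was 38.9 percentage points in set 1 and 2.10 in set 2, and the second 26.8 and 17.6. Over its 8 cytosines, *Kcnk10* had 31.7%, 29.8%, 65.4% and 46.0% in the control-F1 lines and 55.4%, 53.9%, 48.8% and 54.1% in the ICSI-F1 lines. This promoter difference, 9.83 percentage points, was 23.9 in set 1 and −4.22 in set 2, and 5.37 without line 37 and 17.2 without line 44.

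*Kcnk12* (ENSMUSG00000050138), a relative that gives little current on its own, had 1 hypermethylated cytosine in an island on chromosome 17, at 87798463 on the minus strand and in CCGG. Its levels were 73.1%, 28.9%, 97.0% and 78.8% in the control-F1 lines and 77.8%, 100%, 91.7% and 97.7% in the ICSI-F1 lines, with 24 to 43 scaled reads. Line 37 was low, line 44 was among the highest, and the groups overlapped. The difference of 22.3 percentage points was 8.83 without line 37 and 31.5 without line 44. The partner cytosine on the other strand had 3.84%, and its difference was −1.29 percentage points. *Kcnv1*, in turn, had a cytosine at 45115055, with a difference of 20.5 percentage points, which the rule did not call because ICSI-F1 line 11 (39.5%) lay below the control-F1 mean of 57.3%.

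**Figure D5:**
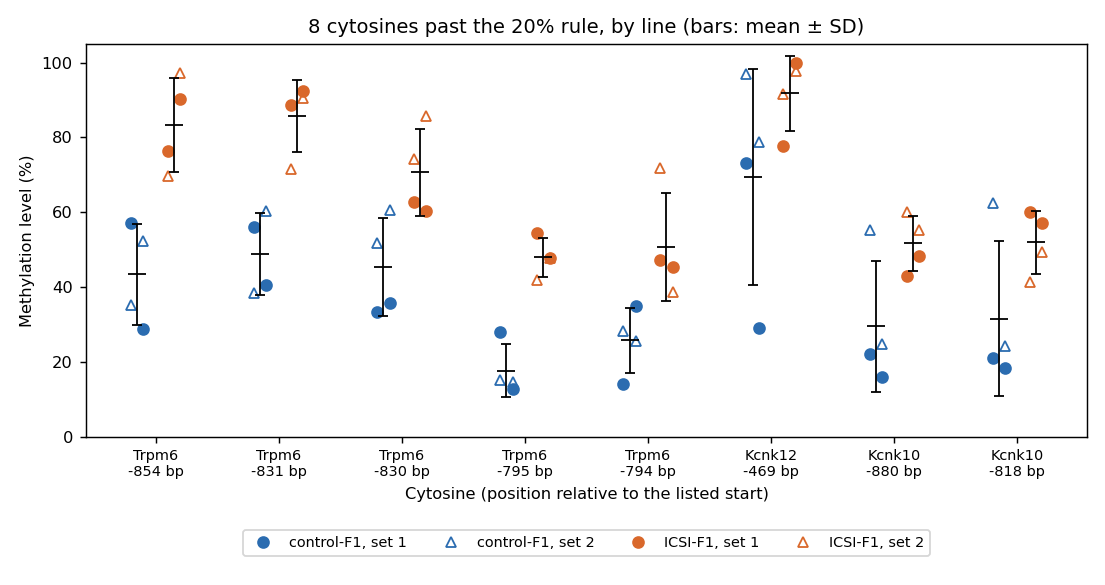
Methylation level (%) of the 8 hypermethylated channel cytosines in each line, with the mean ± SD (n = 4) of each group as bars. Blue is control-F1 and orange ICSI-F1, filled circles are set 1 and open triangles set 2, and positions are in bp relative to the listed start. At 4 of the 5 *Trpm6* cytosines the groups do not overlap, whereas line 44 is high in *Kcnk10* and line 37 low in *Kcnk12*.

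The potassium channels were the largest group. Pore-forming voltage-gated subunits, which end the action potential, had 19 of 39 annotated genes covered with 816 cytosines at 6.01% ± 1.58 in the control-F1 lines and 6.08% ± 1.34 in the ICSI-F1 lines. Of their promoters, 12 were higher and 7 lower, where 44.5% of all promoters of the table were higher, and 16 were under 10%. *Kcnh3*, an ether-a-go-go channel of the brain with 128 island cytosines, had 3.83% ± 0.62 and 4.25% ± 1.25. *Kcna4*, a Shaker-type channel, was split by set, with 0.618% or less in both control-F1 lines of set 1 and 9.46% and 10.7% in those of set 2, and its ICSI-F1 lines had 1.70% to 6.90%.

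Inward rectifiers, which hold the resting potential, were the class with the lowest levels among the potassium channels. Their 303 cytosines in 6 promoters had 4.73% ± 1.37 and 4.25% ± 1.00. The promoter of *Kcnj4* had the most cytosines of all members, 186, with 5.43% ± 1.31 and 4.59% ± 0.99. The 6 covered genes of background (K2P) channels had 106 cytosines with 10.5% ± 2.87 and 10.2% ± 1.36, and their median promoter was at 7.38%, with *Kcnk10* at the top. Channels gated by calcium or sodium (*Kcnn1*, *Kcnn3*, *Kcnn4* and *Kcnt2*) had 79 cytosines with 11.03% ± 2.40 and 12.4% ± 3.05. All 4 had a higher mean percentage in ICSI-F1 lines, by a median of 0.64 percentage points, with overlap and without passing a test. Over the table, 44.5% of promoters were higher. For *Kcnn3* the difference was 0.00835 percentage points, and −0.02 on the log2 scale. *Kcnt2*, a sodium-activated channel, had 4.13% ± 1.78 and 5.07% ± 1.67 over 38 cytosines. Among the auxiliary subunits, 4 of 15 genes were covered by only 26 cytosines. Of these, a cytosine of *Kcnip3*, 132 bp upstream and outside CCGG, separated the groups without overlap. It had at most 8% in the control-F1 lines and 13.8%, 21.3%, 27.9% and 14.0% in lines 11, 17, 20 and 21. Its difference, 16.4 percentage points, was below the threshold (17.6 in set 1, 15.3 in set 2, adjusted p = 0.702 in the logistic model). This cytosine was named after its values were seen, and the share of all cytosines that separate the groups is not given.

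Calcium channel pore subunits, the voltage sensors of calcium entry, had 197 cytosines in 4 promoters with 5.61% ± 2.01 and 4.97% ± 0.74. *Cacna1h*, a T-type channel, had 4.49% ± 0.87 and 4.96% ± 0.93 over 82 cytosines. Their auxiliary subunits ranged from 1.66% in *Cacna2d1* to 97.5% in *Cacng1*. Within that class, *Cacna2d3* had 136 island cytosines with 4.75% ± 2.00 and 4.44% ± 1.17. One of its cytosines, in CCGG 397 bp upstream, had the largest decrease after *Kcnc4*, with 32.1% ± 9.76 and 16.9% ± 3.89, where the groups overlapped (adjusted p = 0.702 in the logistic model). The *Kcnc4* cytosine, 19 bp upstream of this Shaw-type channel, differed by −15.5 percentage points and by −3.07 without line 44, which alone had 53.8%.

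Averaged over the cytosines of 4 promoters, sodium channel subunits had 8.81% ± 2.20 and 8.59% ± 1.23. Pacemaker channels *Hcn2* and *Hcn4* were low, and the 159 cytosines of *Hcn4* had 4.58% ± 1.14 and 4.23% ± 1.11. Among chloride channels and exchangers, *Clcn3*, an endosomal exchanger, was the least methylated member with 0.324%, and *Clcn6* had 3.89% ± 2.21 and 3.97% ± 1.70. *Clcn7*, the lysosomal exchanger, had 11.8% ± 3.47 and 15.3% ± 3.11, differing by 3.62 percentage points within set 1 and 3.23 within set 2. Of its 15 cytosines, 5 were in CCGG, and the other 10 averaged only 2.30% in control-F1 lines and 2.59% in ICSI-F1 lines. At its CCGG cytosine 425 bp upstream the means were 6.48% ± 7.04 and 22.9% ± 11.7, with 15.1 and 17.6 percentage points in the sets and with overlap (adjusted p = 0.702 in the logistic model). TRP channels, cation channels of sensory and epithelial cells, had 164 cytosines with 6.43% ± 1.72 and 6.67% ± 1.65 and all 7 promoters under 10%. Apart from *Trpm6*, they included *Trpv4* with 7.08% ± 1.67 and 6.26% ± 2.00.

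Within single sets, 2 lines against 2, groups without overlap were frequent in channels and in the whole table. In set 1, 16 channel promoters (22.5%) were higher without overlap and 6 (8.45%) lower, where 17.1% and 13.5% of all promoters were. In set 2, 8 (11.3%) were higher and 13 (18.3%) lower, where 11.4% and 22.1% were. *Cacnb4*, *Clcn7* and *Trpm6* were higher without overlap in both sets, *Kcne1* and *Kcnip4* were lower in both, and *Kcna4* went opposite ways. The share of all promoters that did so in both sets is not given, so these genes are not set apart from the table. Other gene groups were set beside the channels without a test. Promoters at 20% or more made up 15.5% of channel genes, 15.7% of the table, 26.7% of 45 other channel genes such as gap junction and ryanodine receptor genes, 31.8% of 22 ligand-gated receptor genes and 17.1% of 158 solute carrier genes.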

How the data were processed

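RRBS of 8 GS cell lines was analysed. The authors trimmed reads with Trim Galore 0.5.0, used Bismark 0.20.0 for alignment to mm10, and joined cytosines of all lines with methylKit, whose version is 1.16.0 in the submitters' processing notes. The values deposited by the authors are a score, namely methylated and unmethylated read numbers per cytosine and line after scaling of coverage, rounded, with strands kept apart. The planned logistic test assumed read numbers and was kept for these scores. No binomial intervals were computed, because the scaled numbers are not reads. Reads carried no molecular identifiers.

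The members, classes and gene lists were chosen with earlier results of these data known. Group values are unweighted means of 4 lines. Promoter levels, the mean over a gene's cytosines, were tested with limma 3.58.1 (trend, log2(percent + 1)). Cytosines were tested with a quasi-binomial logistic model with moderated dispersion and a floor of 1. P-values were adjusted over the whole table by Benjamini-Hochberg at 0.05. Promoters were named when they held a hypermethylated cytosine, were among the 10 highest or the 3 most variable, or had the most cytosines of their class. *Cacna2d1*, *Clcn3*, *Clcn7*, *Hcn2*, *Kcna4*, *Kcnc4*, *Kcne1*, *Kcnip3*, *Kcnip4*, *Kcnn1*, *Kcnn3* and *Scn4b*, and single cytosines outside the 20% rule, were named after their values were seen. Some genes are not reported here. CCGG contexts and repeats were read from GRCm38.p6. R 4.3.3 and Python 3.11.15 were used.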

Additional observations from a re-analysis of the deposited data

Results flagged for a closer look

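Dixon's test was applied to 60 groups of 4 lines, taken from the named promoters and the hypermethylated cytosines, and flagged 3 of them, where chance flags about 1 in 20. In *Cacng1*, ICSI-F1 line 17 had a promoter level of 92.86%, and the other 3 ICSI-F1 lines had 100%. At the *Kcnk10* cytosine 98579128, control-F1 line 44 had 62.37%, where lines 29, 37 and 45 had 18.3% to 24.2%. At the *Trpm6* cytosine 18749188, control-F1 line 29 had 28.06%, where lines 37, 44 and 45 had 12.6% to 15.1%, and all were below every ICSI-F1 line.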

How the results depend on the processing

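The number of hypermethylated channel cytosines, 8, was 3 with strands merged (all in *Trpm6*), 4 when every ICSI-F1 line had to exceed every control-F1 line, 17 and 5 at thresholds of 15 and 25 percentage points, 26 in set 1 alone, 5 without CCGG cytosines (chosen after seeing the data) and 5 to 18 when single lines were left out (5 without line 37, 15 without line 11, 18 without line 44). The number of hypomethylated cytosines, 0, was 2 at 15 points, 2 in set 1, 4 in set 2 and 0 to 2 without single lines. Outside CCGG, 0.252% of channel cytosines were hypermethylated, where 0.161% of all were. For the other settings the share over all cytosines is not given, so these counts do not set the channels apart from the table. Promoters higher without overlap, 0, were 2 and 1 with at least 20 and 30 scaled reads (53 and 47 in the whole table), 16 in set 1, 8 in set 2 and 0 to 3 without single lines (3 without line 44, 215 in the whole table). Promoters lower without overlap, 0, were 6 in set 1, 13 in set 2 and 0 to 4 without single lines (4 without line 29, 326 in the whole table). Cytosines at a false discovery rate of 0.05, 0, were 1 with at least 30 scaled reads and 0 to 2 without single lines. Promoters at 20% or more, 11, were 7 and 5 with at least 20 and 30 scaled reads, 6 with at least 5 cytosines, 5 without CCGG cytosines and 0 with island cytosines only. Fewer cytosines or lines entered most of these, and the cause was otherwise not tested. The difference of the channel mean, −0.055 percentage points, was −0.533 to 0.524 without single lines, 0.0422 with reads pooled, 0.734 outside islands and −0.236 without CCGG cytosines. Promoters at a false discovery rate of 0.05 numbered 0 in every alternative run. Coverage as low as 10 scaled reads limits single values.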
